A study of Homo sapiens with 4 samples.

Results

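The genes for RBBP4 and 6 proteins that share histone deacetylase complexes with it were described in H3K9ac region lists of T98G cells, an established human glioblastoma cell line. The 7 genes were RBBP4, HDAC1, HDAC2, CHD4, MTA1, MTA2 and SIN3A and each was given by 1 start on hg19. A called region belonged to a gene when any part of it lay within 5 kb of that start. This took 19 of the 26828 regions of the control library and 30 of the 39303 regions of the RBBP4 shRNA library. The cells, at passage 4, had been transduced with lentivirus for one of 2 shRNAs, a control (shNT) or one that targets RBBP4 (shRBBP4). Each shRNA has 1 H3K9ac library and 1 input library, and only the region lists of the 2 H3K9ac libraries were used. With 1 library per shRNA, no difference below has a replicate check and no test between the shRNAs was made. The number of shRNA sequences, clones or cultures behind each library is not given in the labels. RNA and protein were not analysed here, so the loss of RBBP4 itself is not checked by these data.

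Histone deacetylases remove acetyl groups from lysines of histone tails, among them lysine 9 of histone H3, a mark (H3K9ac) found next to the starts of active genes. HDAC1 and HDAC2 are closely related class I enzymes that work inside larger complexes. In the NuRD complex they are joined by the ATP-dependent remodeller CHD4 and by MTA1 or MTA2, which bind the enzymes. In the Sin3 complex SIN3A is the scaffold. RBBP4 is a WD40-repeat protein that binds histone H4 and H3 and belongs to both complexes, and also to the Polycomb complex PRC2 and the chromatin assembly factor CAF-1. The comparison asks how H3K9ac at the genes for these proteins differs between control and RBBP4 shRNA cells.

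The promoters of 4 of the genes are shown because the results below turn on them. RBBP4 had the highest-scoring regions, HDAC1 the greatest ratio of covered length, HDAC2 is its closest relative, and MTA2 had nearly equal coverage in both libraries. The sequences are the 250 bases before the first start listed by RefSeq, on GRCh38.p14, 5′ to 3′ in the direction of the gene. They lie at chr1:32650958-32651207 (plus strand) for RBBP4, chr1:32291833-32292082 (plus) for HDAC1, chr6:113971149-113971398 (minus) for HDAC2 and chr11:62601866-62602115 (minus) for MTA2. The regions are on hg19, so these letters were not placed base by base against them. Capitals mark the GC box GGGCGG, the CCAAT box CCAAT, the E2F-like run TTGGCGC, the ETS-like run CCGGAAG and the TATA box TATAAA, each searched on both strands.
RBBP4: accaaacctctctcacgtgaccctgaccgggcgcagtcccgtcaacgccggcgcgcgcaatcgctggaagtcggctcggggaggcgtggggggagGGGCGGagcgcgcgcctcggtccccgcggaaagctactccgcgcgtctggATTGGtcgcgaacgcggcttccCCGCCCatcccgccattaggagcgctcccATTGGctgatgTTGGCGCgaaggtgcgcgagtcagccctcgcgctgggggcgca
HDAC1: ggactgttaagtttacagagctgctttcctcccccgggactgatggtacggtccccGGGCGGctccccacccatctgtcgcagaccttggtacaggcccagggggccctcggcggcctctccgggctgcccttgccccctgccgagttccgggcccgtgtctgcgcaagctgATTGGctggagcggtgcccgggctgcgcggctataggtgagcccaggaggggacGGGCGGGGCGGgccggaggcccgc
HDAC2: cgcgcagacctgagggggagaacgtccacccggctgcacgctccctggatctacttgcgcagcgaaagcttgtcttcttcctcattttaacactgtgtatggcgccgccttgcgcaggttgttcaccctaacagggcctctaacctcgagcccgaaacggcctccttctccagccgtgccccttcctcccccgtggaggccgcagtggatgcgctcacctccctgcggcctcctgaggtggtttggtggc
MTA2: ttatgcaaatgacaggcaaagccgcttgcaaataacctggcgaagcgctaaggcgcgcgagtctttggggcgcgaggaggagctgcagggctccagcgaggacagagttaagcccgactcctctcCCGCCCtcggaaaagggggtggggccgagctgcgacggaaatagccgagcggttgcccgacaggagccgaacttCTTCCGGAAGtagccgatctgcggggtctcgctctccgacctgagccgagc

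The RBBP4 promoter held 2 GC boxes, 2 CCAAT boxes and 1 E2F-like run, which 2.56% of all 35097 RefSeq promoters of the same length hold. HDAC1 had 3 GC boxes, of which 2 overlap in 1 capital run, and 1 CCAAT box. A GC box is present in 42.6% and a CCAAT box in 32.0% of all promoters. The HDAC2 promoter held none of the 5 motifs in this window. MTA2 had 1 GC box and 2 ETS-like matches, which share 1 capital run read on both strands, and 8.52% of promoters have an ETS-like match. All 7 genes were found in the RefSeq table, with 10 listed starts. The 1 start listed for CHD4 is not at the outer end of the gene in the same RefSeq tables, so the stretch before it may not be the promoter used here and was left out of the ranges. The G and C content before the 9 starts of the other 6 genes was 62.0% to 76.8%, against a median of 58.0% over all promoters, and the number of CG pairs was 17 to 37, against a median of 11. A match to a motif describes the letters only. The letters of the TATA box were matched before the first listed start of SIN3A, on the opposite strand, and before no other listed start of the 7 genes. On either strand, 10.7% of all promoters held them.

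H3K9ac regions lay near 6 of the 7 genes in shNT and near all 7 in shRBBP4. The exception was CHD4, whose window held no shNT region and 1 weak shRBBP4 region. As a background, regions of both lists were joined across gaps of up to 1 kb into 18106 joint clusters, of which 57.7% held regions of both libraries and 35.0% held shRBBP4 and 7.26% shNT regions alone. The 7 windows met 8 joint clusters, and 7 of these held both. All member regions within 5 kb together covered 4.91 kb in shNT and 8.74 kb in shRBBP4, a ratio of 1.78, while the whole lists had a ratio of 1.51. The ratio of region numbers was 1.58 (95% interval 0.860 to 2.97), which includes the 1.46 of the whole lists. Such intervals, here exact and conditional on the sum of the counts, cover counting error only. With the shRBBP4 list cut to its highest-scoring 26828 regions, the length of the shNT list, the windows held 24 shRBBP4 regions covering 7626 bp. In shNT they held 19 covering 4913 bp, and no ratio of covered length over the whole lists was computed at equal length. The numbers of reads behind the 2 lists are unknown, so a longer list cannot be read as more acetylation.

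**Figure D1:**
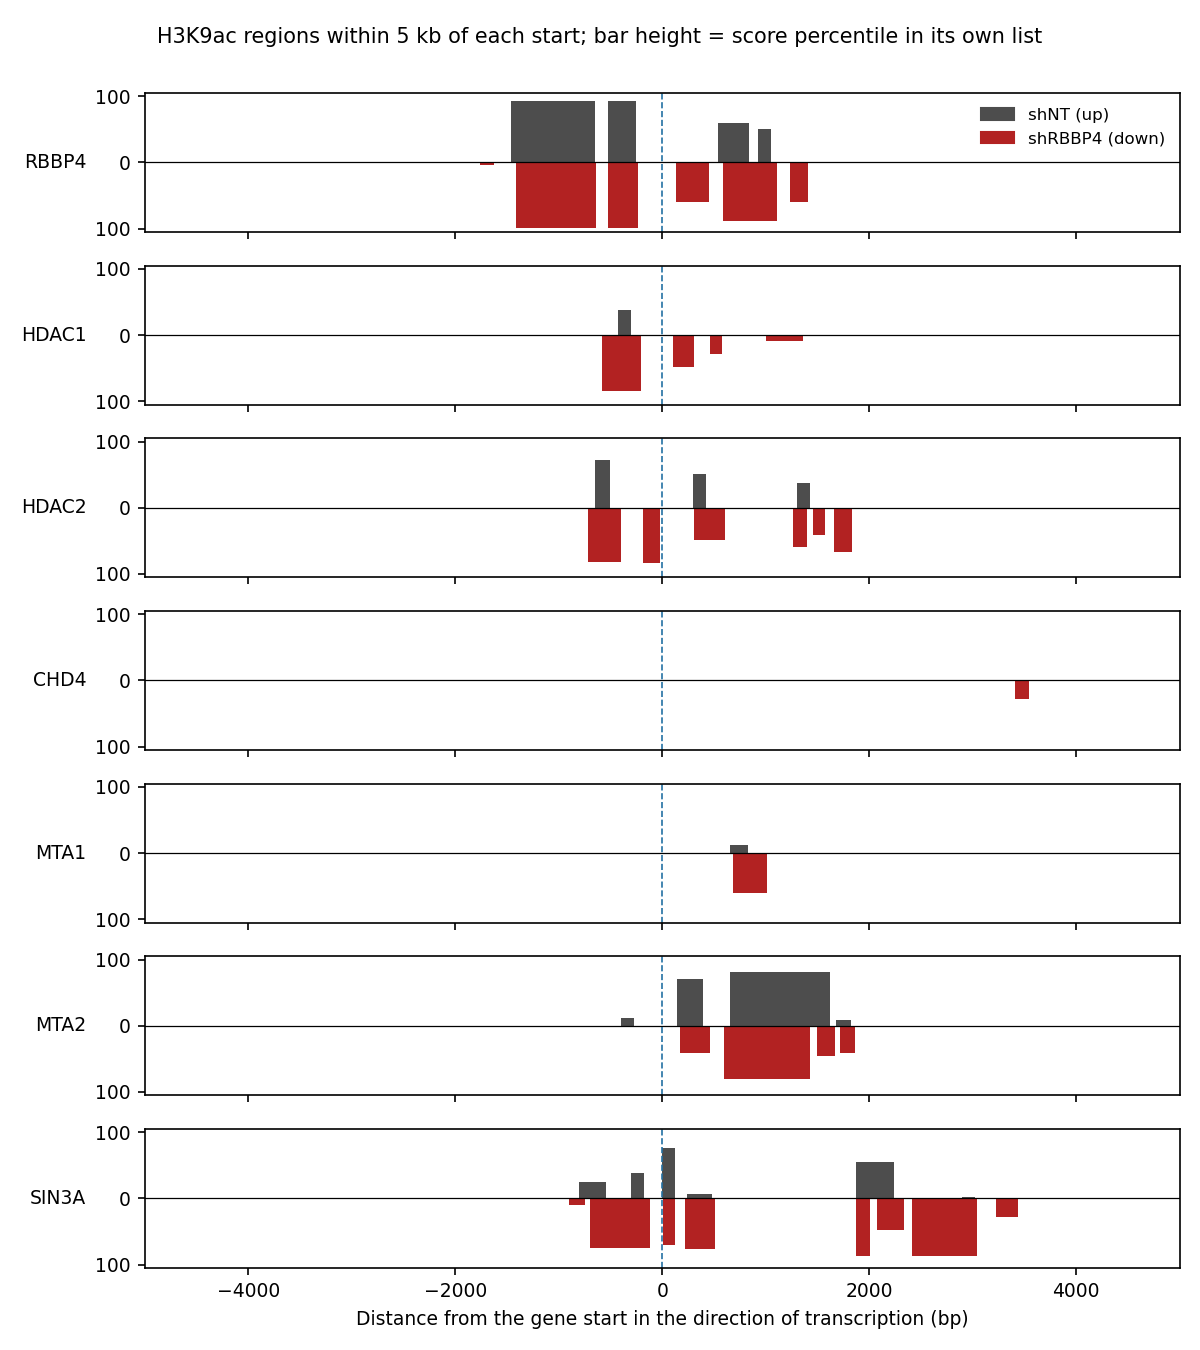
H3K9ac regions within 5 kb of the 7 gene starts, with distance from the start in base pairs along the direction of transcription on the x axis. Bars up are shNT and bars down shRBBP4 regions, their width is the region and their height the score percentile within the library's own list. CHD4 has 1 bar, RBBP4 has tall bars on both sides of the dashed start line, and MTA2 has almost all of its bars downstream of it.

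Strength is given as the percentile of a region's deposited score within its own list. Tied scores share their mean rank, and ties are common, with 1301 distinct scores in shNT and 2104 in shRBBP4. The score has no stated scale, and percentiles of lists of different lengths do not show a change of signal. In shNT the highest-scoring region of each gene stood at percentile 93.6 for RBBP4, 80.8 for MTA2, 76.2 for SIN3A, 72.2 for HDAC2, 37.7 for HDAC1 and 12.2 for MTA1. In shRBBP4 the order was RBBP4 at 98.9, SIN3A at 87.1, HDAC1 at 84.7, HDAC2 at 83.2, MTA2 at 81.3, MTA1 at 59.7 and CHD4 at 28.4. RBBP4 was thus first in both libraries and MTA1 stood lowest of the 6 genes called in both, while HDAC1 stood next to last of the 6 genes called in shNT and in the third place in shRBBP4. The median over the genes with a region was 74.2 over 6 genes in shNT and 83.2 over 7 genes, CHD4 included, in shRBBP4. In a window of 2 kb, which leaves CHD4 without a region, the shRBBP4 median was 84.0. The medians over all joint clusters held by both libraries, which leave out that of CHD4, were 70.3 and 78.7. A higher percentile in shRBBP4 was found for 6 of 6 genes called in both, against 63.6% of those clusters. These percentiles are from the full lists. In lists of equal length the difference, shRBBP4 minus shNT, is given gene by gene, since no share over all clusters was computed there. It went from 47.6 to 28.8 at MTA1, from 11.1 to 3.27 at HDAC2, from 10.9 to 4.88 at SIN3A, from 47.0 to 39.8 at HDAC1 and from 5.32 to 4.82 at RBBP4, and it turned from 0.411 to -8.31 at MTA2. By width of the widest region, in the full lists, the difference was -2.27 at MTA2 and -1.57 at RBBP4. It was 70.6 at HDAC1, 49.6 at HDAC2, 32.1 at MTA1 and 12.5 at SIN3A.

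**Figure D2:**
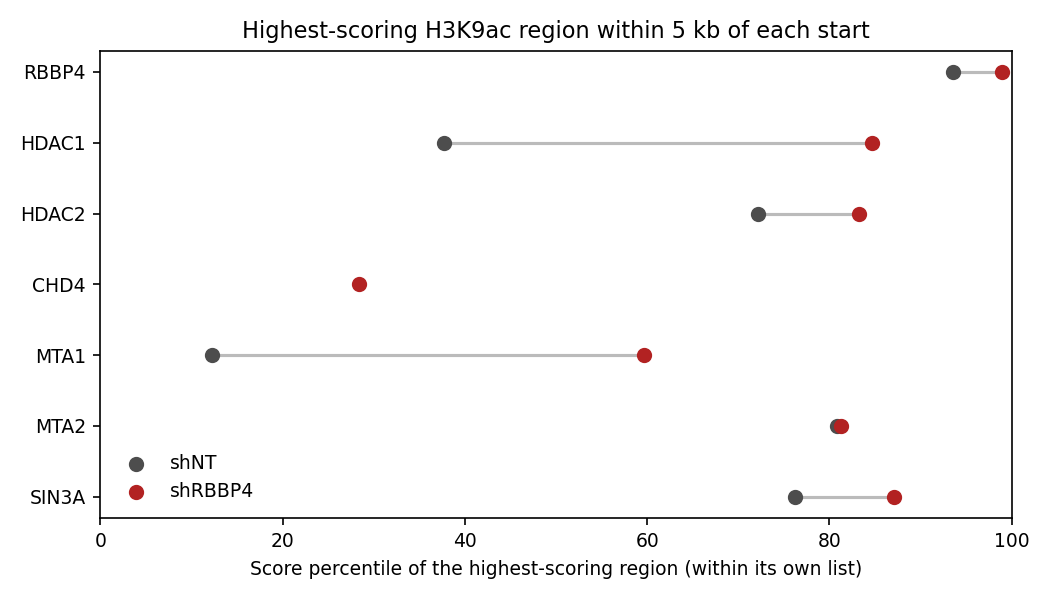
Score percentile, within its own list, of the highest-scoring H3K9ac region within 5 kb of each start (x axis, 0 to 100), with 1 dot per library and a line joining the dots of a gene. HDAC1 (37.7 and 84.7) and MTA1 (12.2 and 59.7) have the longest lines, the dots of MTA2 (80.8 and 81.3) nearly coincide, and CHD4 has an shRBBP4 dot alone. The full lists are plotted, and in lists of equal length the MTA2 difference was -8.31.

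RBBP4, the histone-binding subunit that the shRNA targets, had the highest score percentile of the 7 genes in both libraries. By width percentile, the widest region of MTA2 stood above that of RBBP4, at 97.6 against 95.8 in shNT and 95.3 against 94.2 in shRBBP4. The start of RBBP4 is on chromosome 1 at 33116749. In shNT 4 regions covered 1501 bp, and in shRBBP4 6 regions covered 2193 bp, a ratio of 1.46. This ratio stood at percentile 56.7 among the joint clusters of both libraries, so the coverage of RBBP4 differed about as that of a typical cluster. The RefSeq table lists the start of ZBTB8OS within 5 kb on the opposite strand, so regions upstream of RBBP4 may belong to either gene.

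The strong part of the RBBP4 pattern was a pair of regions upstream of the start. The wider one ran over chr1:33115283-33116096 (814 bp) at percentile 93.6 in shNT and over chr1:33115338-33116110 (773 bp) at percentile 98.4 in shRBBP4. The narrower one was 264 bp at percentile 92.9 in shNT, and 287 bp at percentile 98.9 in shRBBP4. The edges of the 2 regions differed between the libraries by 55 and 14 bp for the wider and by 1 and 22 bp for the narrower one. Downstream of the start, the shNT regions stood lower, at percentiles 59.5 and 51.2. One shRBBP4 region of 516 bp at percentile 89.0 overlapped both of them. The regions that shRBBP4 had in addition were 1 upstream at percentile 3.41 and 2 downstream, both at percentile 59.7. No region of either library lay on the start itself, and the gap over it was 795 bp in shNT and 372 bp in shRBBP4, the downstream edge of the gap being closer to the start in shRBBP4. Of the bases covered in shNT, 92.8% were covered in shRBBP4, and 63.5% of the shRBBP4 bases were covered in shNT.

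HDAC1 and HDAC2, the catalytic subunits, had the greatest ratios of covered length. At HDAC1, on chromosome 1 at 32757708, shNT had 1 region of 123 bp, 304 to 426 bp upstream of the start. That width is the smallest in the shNT list, where 3318 regions have it, so the HDAC1 ratio rests on a region at the lower limit of what was called. In shRBBP4 a region of 373 bp enclosed it at percentile 84.7, against 37.7 in shNT. Another 3 shRBBP4 regions lay 106 to 1357 bp downstream at percentiles 48.9, 28.4 and 8.79, where shNT had none. The covered length was 123 bp in shNT and 1056 bp in shRBBP4, a ratio of 8.59 that stood at percentile 99.4 among the joint clusters of both libraries. In lists of equal length, made by keeping the highest-scoring shRBBP4 regions, the log2 ratio was 2.23, against 3.10 in the full lists.

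HDAC2, on chromosome 6 at 114292359 on the minus strand, had 3 narrow regions in shNT and 6 regions in shRBBP4. The shNT regions were 125 to 139 bp wide and stood at percentiles 72.2 upstream of the start and 51.2 and 37.7 downstream. Each of the 3 was met by an shRBBP4 region, at percentiles 82.7, 48.9 and 59.7. The highest-scoring shRBBP4 region of HDAC2, at percentile 83.2, was not among them. It lay 21 to 187 bp upstream of the start, at chr6:114292380-114292546, inside the 807 bp gap of shNT. The gap over the start was 328 bp in shRBBP4. The covered length was 392 bp in shNT and 1217 bp in shRBBP4, a ratio of 3.10 at percentile 89.4 of the clusters. HDAC2-AS2 starts within 5 kb on the opposite strand in the RefSeq table, so these regions, too, may belong to either gene.

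**Figure D3:**
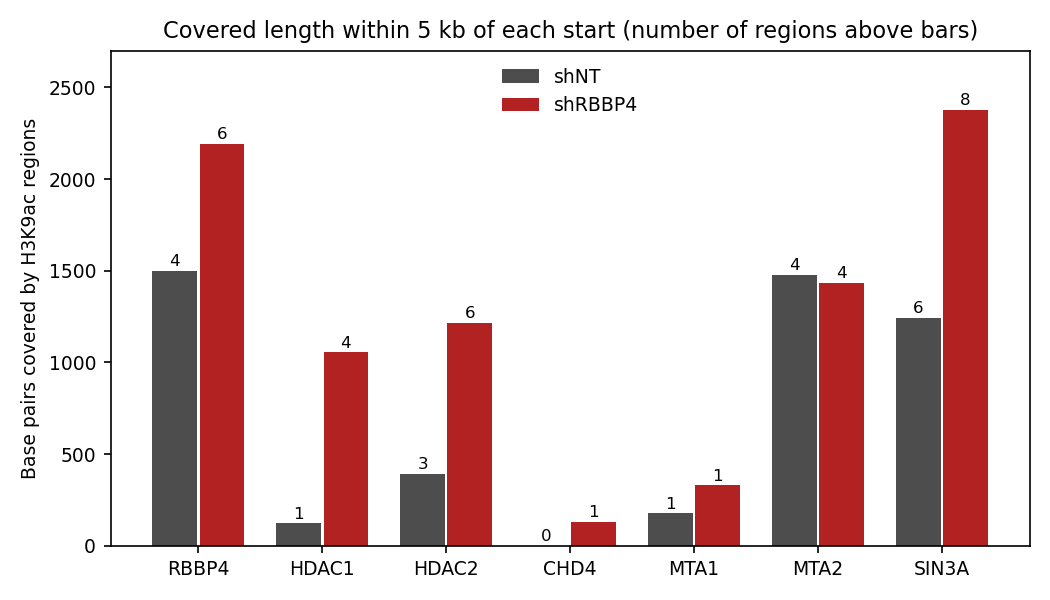
Base pairs covered by H3K9ac regions within 5 kb of each start (y axis), with shNT and shRBBP4 bars side by side and the number of regions above each bar. The shRBBP4 bar is the taller at RBBP4, HDAC1, HDAC2, CHD4, MTA1 and SIN3A, by 692 bp at RBBP4 and 1136 bp at SIN3A, while at MTA2 the bars are 1479 and 1433 bp.

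The NuRD subunits CHD4, MTA1 and MTA2 did not share a pattern. MTA2, on chromosome 11 at 62369312 on the minus strand, had 4 regions in each library, with 1479 bp covered in shNT and 1433 bp in shRBBP4. Its ratio of 0.969 stood at percentile 25.7 of the clusters, the lowest of the 7 clusters of these genes held by both libraries. The main region lay in the first 2 kb of the gene, with a width of 968 bp at percentile 80.8 in shNT, chr11:62367691-62368658, and 832 bp at percentile 81.3 in shRBBP4, chr11:62367888-62368719. A region next to the start, 249 bp wide in shNT and 286 bp in shRBBP4, stood at percentile 70.3 in shNT and 40.5 in shRBBP4. The 1 region upstream of the MTA2 start, 123 bp at percentile 12.2 in shNT, had no overlap in shRBBP4. It was the 1 shNT region of the 19 in the 7 windows without one.

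MTA1, on chromosome 14 at 105886186, had 1 region in each library, downstream of the start. It was 176 bp wide at percentile 12.2 in shNT and 329 bp wide at percentile 59.7 in shRBBP4, at chr14:105886840-105887015 and chr14:105886868-105887196. The 2 regions overlapped by 148 bp. The ratio of covered length was 1.87, percentile 71.7 of the clusters. MTA1 thus had an isolated region, low in the shNT list and above the middle of the shRBBP4 list, with no region upstream of the start in either library.

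CHD4, the remodelling ATPase of NuRD, stood apart by the lack of regions. Its start is on chromosome 12 at 6716551 on the minus strand. The nearest shNT region lay 39.2 kb downstream and the nearest upstream one 55.2 kb away. The 1 shRBBP4 region in the window, chr12:6713010-6713140, was 131 bp wide, lay 3411 bp inside the gene and stood at percentile 28.4. The next shRBBP4 regions were 38.6 kb downstream and 54.7 kb upstream. The surroundings of CHD4 were not empty, with 69 shNT and 102 shRBBP4 regions in the 500 kb on each side of the start. The absence of a call is a statement on these 2 lists at their unknown depths, and acetylation at CHD4 below the limit of the caller would not be seen. In lists of equal length the shRBBP4 region of CHD4 was lost as well.

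SIN3A, the scaffold of the Sin3 complex, had the most regions of the 7 genes, in 2 joint clusters. Its start is on chromosome 15 at 75748124 on the minus strand. In all, 6 shNT regions covered 1242 bp and 8 shRBBP4 regions covered 2378 bp, a ratio of 1.91. In the cluster over the start, 4 shNT regions covered 747 bp and 4 shRBBP4 regions 1135 bp, a ratio of 1.52 at percentile 59.6. A narrow shNT region of 123 bp at percentile 76.2, chr15:75748003-75748125, spanned the listed start. This was the 1 case among the 7 genes and both libraries in which a region lay on the start. Its shRBBP4 counterpart of 117 bp at percentile 70.5 began 4 bp downstream of the start.

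The cluster inside SIN3A, 1869 to 3437 bp downstream of the start, differed more between the libraries. It held 2 shNT regions covering 495 bp and 4 shRBBP4 regions covering 1243 bp, a ratio of 2.51 at percentile 83.7. The strongest shRBBP4 region of SIN3A was here, with 634 bp at percentile 87.1, chr15:75745082-75745715. The shNT region that it overlapped was 123 bp wide at percentile 1.47. The strongest shNT region of this cluster was 372 bp wide at percentile 55.6. The RefSeq table lists 2 starts of SIN3A that are 4125 bp apart, on another build, and which start the inner cluster belongs to was not settled.

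**Figure D4:**
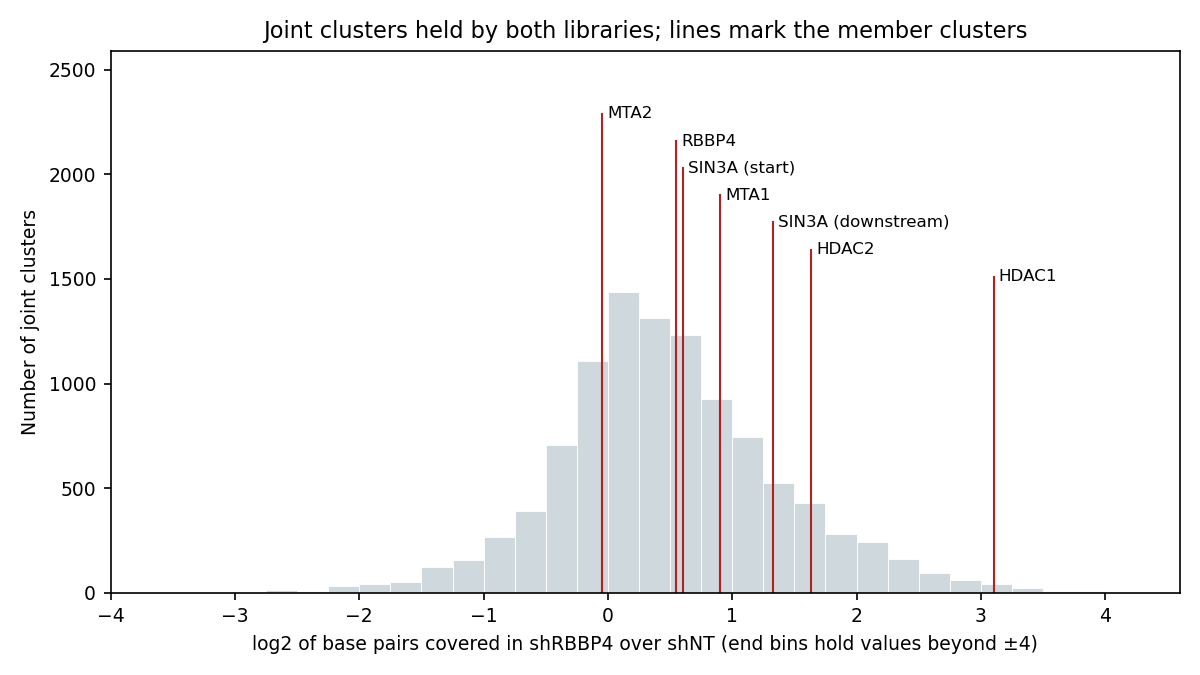
Histogram of the log2 ratio of base pairs covered in shRBBP4 over shNT (x axis) for the 10454 joint clusters held by both libraries (y axis, number of clusters), with vertical lines at the 7 clusters of the described genes. MTA2 lies just below 0 and HDAC1 at 3.10 in the upper tail, with RBBP4, MTA1, HDAC2 and both SIN3A clusters between them.

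Over the 6 genes called in both libraries, 5 had more base pairs covered in shRBBP4, against 71.9% of all joint clusters of both libraries. A ratio of at least 1.5 was found at 4 of 6 genes, HDAC1, HDAC2, MTA1 and SIN3A, against 41.5% of the clusters, and a ratio as large in the other direction at 0 of 6, against 9.15%. In a window of 2 kb the log2 ratio at SIN3A was 0.53, a ratio of 1.44, which left 3 of 6 genes at 1.5 or more. A window and a cluster are not the same unit, since the 2 SIN3A clusters share 1 window. The median ratio over all joint clusters of both libraries was 1.33, with quartiles of 0.958 and 2. The counts for the 6 genes lean the way that the whole lists lean, and so few genes cannot place them apart from it. Without MTA2 the ratio of covered length over the windows was 2.13, and without HDAC1 it was 1.60.

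How many regions had a counterpart depended on the overlap asked for. Of the 19 shNT regions, 18 shared at least 1 bp with a region called in shRBBP4 (94.7%, exact Clopper-Pearson 95% interval 74.0 to 99.9), against 77.0% in the whole list. In shRBBP4, 19 of the 30 regions did so with shNT (63.3%, 43.9 to 80.1), against 50.04%. When each region of a pair had to overlap the other over at least 50% of its width, 42.1% of the shNT and 26.7% of the shRBBP4 regions of these genes had a counterpart, against 39.6% and 27.0% of all regions. The 11 shRBBP4 regions of these genes with no shNT overlap of even 1 bp had a median percentile of 40.5 and a median width of 172 bp, while the 19 others had medians of 75 and 288 bp. The whole shRBBP4 list showed the same split, with 34.6 and 164 bp against 68.7 and 303 bp. The added regions of these genes were therefore mostly weak and narrow, as added regions were in the list at large. The region next to the HDAC2 start, at percentile 83.2, was the strongest of the 11.

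Most regions lay close to the starts, and summed over the windows more was covered downstream than upstream of them in both libraries. RBBP4 went the other way, with 1078 bp upstream and 423 bp downstream in shNT and 1191 and 1002 bp in shRBBP4. So did HDAC1 in shNT, with 123 bp upstream and none downstream. Within 2 kb of a start were 18 of the 19 shNT and 26 of the 30 shRBBP4 regions. The same share over all gene starts was not computed. Upstream of the starts 1848 bp were covered in shNT and 2785 bp in shRBBP4, a ratio of 1.51. From the starts onward, 3065 bp were covered in shNT and 5952 bp in shRBBP4, a ratio of 1.94. An uncovered gap with regions on both sides of the start was seen at RBBP4, HDAC2 and MTA2 in shNT and at RBBP4, HDAC1, HDAC2 and SIN3A in shRBBP4. Where both libraries had such a gap, at RBBP4 and HDAC2, it was shorter in shRBBP4, which had a region nearer to the start. HDAC1 also had a nearer region in shRBBP4, at 106 against 304 bp. The nearest region was farther away in shRBBP4 at MTA1 (682 against 654 bp), MTA2 (176 against 142 bp) and SIN3A (4 against 0 bp). How often such gaps were shorter over all clusters was not computed.

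The surroundings of the genes also held more regions in shRBBP4, as the whole lists did with a ratio of 1.46. The interval for the surroundings of each gene includes that value. In the 500 kb on each side of the start, leaving out the window, RBBP4 had 26 shNT and 50 shRBBP4 regions, a ratio of 1.92 (1.17 to 3.22), and HDAC1 had 29 and 59, a ratio of 2.03 (1.28 to 3.29). The 2 genes are 359 kb apart, so these stretches overlap and each includes the other gene. Chromosome 1 as a whole had a ratio of 1.34 (1.28 to 1.41). With each library's regions joined on their own across gaps of up to 1 kb, the surroundings of RBBP4 gave 15 clusters for shNT. For shRBBP4 they gave 21, or 1.40 times as many. The RBBP4 window, with 4 and 6 regions, had a ratio of 1.5 with an interval of 0.356 to 7.23, which takes in both ratios of its surroundings. The surroundings of SIN3A had a ratio of 1.83 (1.15 to 2.96), those of CHD4 1.48 (1.08 to 2.04) and those of MTA2 1.41 (1.04 to 1.93). HDAC2 and MTA1 lie in sparse stretches, with 7 and 4 shNT regions and 10 and 8 shRBBP4 regions, and their intervals are wide. Chromosome 14, which carries MTA1, had a ratio of 2.02 (1.81 to 2.25). Whether the number of DNA copies at these genes differed between the 2 cell populations was not tested, since the input libraries were not analysed here.

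**Figure D5:**
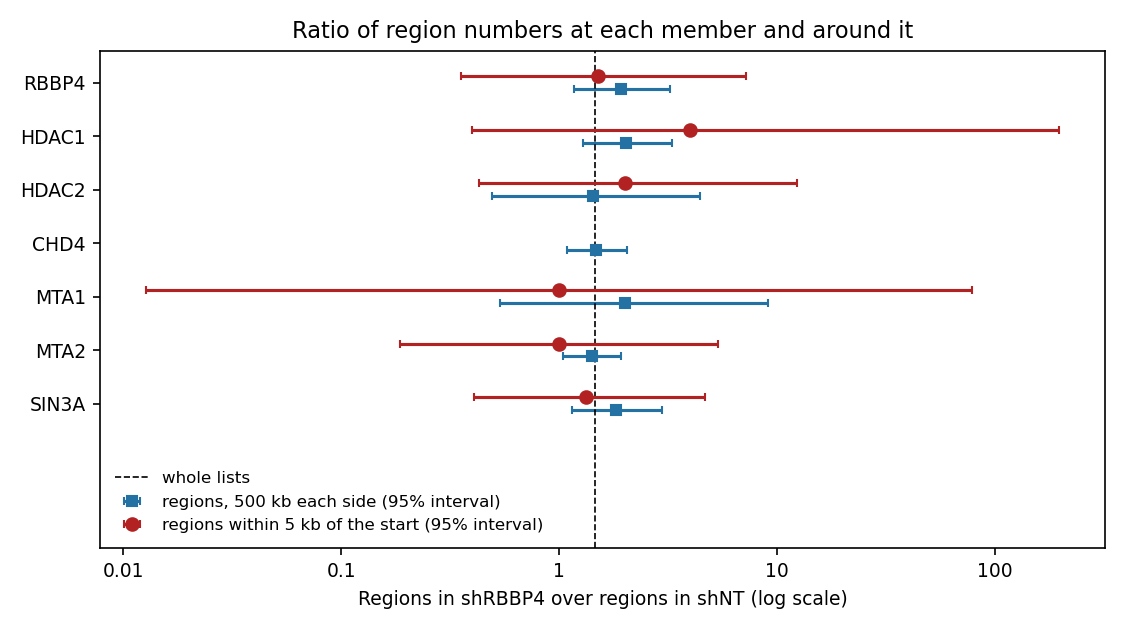
Ratio of the number of shRBBP4 to shNT regions on a log axis for each gene, within 5 kb of the start (dots) and in the 500 kb on each side without that window (squares), both with 95% intervals for counting error only. The dashed line is the ratio of the whole lists, 1.46. The intervals of the dots are wide, from 0.396 to 197 at HDAC1 (1 and 4 regions) and from 0.186 to 5.37 at MTA2 (4 and 4 regions), and CHD4 has no dot because shNT has no region there.

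The same score ranks, read at equal numbers of regions, restate the order given by the percentiles. In the highest-scoring 1000 regions of each list, RBBP4 was reached in shRBBP4 with 2 regions, and no gene was reached in shNT. In the highest-scoring 5000, shNT held RBBP4 and MTA2 and shRBBP4 held RBBP4 alone of the 7 genes. Tied scores ran across this cut in both libraries, so the order of tied regions, not the score, set its edge. The MTA2 region of shNT was in a tie of 430 regions from rank 4926 on. A SIN3A region of shRBBP4, left out, was in a tie of 221 from rank 4967 on. In the highest-scoring 10000, RBBP4, HDAC2, MTA2 and SIN3A were held by both, and HDAC1 by shRBBP4 alone. By the rank of its highest-scoring region, MTA2 alone of the genes called in both was reached earlier in shNT (4926 against 7349). Reached earlier in shRBBP4 were RBBP4 (416 against 1649), SIN3A (4967 against 6123), HDAC1 (5907 against 16026), HDAC2 (6389 against 7428) and MTA1 (15272 against 23046).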

How the data were processed

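H3K9ac was profiled by ChIP-seq, with 1 library per shRNA. Each library has its own list of called regions. The words macs2 and PE stand in the track lines, per the file headers. The submitters' processing notes name SICER, BWA, Picard and bcl2fastq 2.15.0 and, as builds, hg19 and GRCh37, with no role for any of them. Which caller made the lists, at which threshold and with or without the input, is not given in the sources used here. A deposited row holds a region and a score, the authors' own value on an unstated scale, which was used only to rank regions within a list. The lowest score was 2.09 in shNT and 2.00 in shRBBP4. Read depth is unknown.

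The genes and the start positions were chosen with earlier results of these data known. All 7 genes are named. For each, the highest-scoring and the widest region are described. Starts on hg19 were taken as given, strands and neighbouring genes from RefSeq on GRCh38.p14, from which no position was converted. A list of 21 other genes of the complexes was not placed, for want of an hg19 annotation. Covered length counts bases within the window. The functions were tested on simulated lists. Alternatives were windows of 2 and 10 kb, stricter and equal lists, other overlap rules, joined regions and ranks by width. Computing used Python 3.11.15 with scipy 1.17.1, numpy 2.4.6 and pandas 2.3.3, and matplotlib 3.10.9 drew the figures.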

Additional observations from a re-analysis of the deposited data

How the results depend on the processing

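No paired analysis was possible because each shRNA has 1 library. Windows of 2 and 10 kb, lists of equal length and the higher-scoring 50% of each list left 6, 6, 6 and 4 genes called in both libraries. In the highest-scoring 5000 and 10000 regions, a choice made after seeing the data, 1 and 4 were left, fewer regions by construction. The higher-scoring 50% held 9 shNT and 17 shRBBP4 regions of these genes, and joining across gaps of up to 1 kb gave 7 and 8. A tie of 1957 regions ran across the shNT cut of the higher-scoring 50%. Its order by chromosome kept an RBBP4 region and left out an HDAC2 region of equal score. Regions with a counterpart made up 42.1% of shNT and 26.7% of shRBBP4 regions when 50% of both regions had to overlap (39.6% and 27.0% of the whole lists), and 100% and 93.3% when a distance of up to 1 kb was enough (93.8% and 74.3%). It was 41.2% of shRBBP4 regions in the higher-scoring 50%, against 49.8% of all regions in it. The median of the highest percentiles was 59.2 in shNT and 76.8 in shRBBP4 by width, and in shRBBP4 84.0 in the window of 2 kb and 76.5 with equal list lengths. Some values for single genes turned. The log2 ratio of covered length at MTA2 went from -0.05 to 0.11 in a 10 kb window. The percentile difference, shRBBP4 minus shNT, went from 0.411 to -8.31 at MTA2 in lists of equal length. By width it was -2.27 at MTA2 and -1.57 at RBBP4, and it stayed positive at HDAC1, HDAC2, MTA1 and SIN3A. Beyond the smaller lists, the cause was not tested. HDAC1 and MTA1 have no shNT region in the higher-scoring 50%, so no ratio was computed for them there, and CHD4 has none in any setting.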

Other observations

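Between 5 and 10 kb from the starts, outside the windows described, there were 2 shNT and 4 shRBBP4 regions, at SIN3A and MTA2 alone of the 7 genes. At SIN3A an shRBBP4 region of 752 bp, chr15:75741813-75742564, lay 5560 to 6311 bp inside the gene at percentile 64.7 and overlapped no shNT region. It was wider than any region of the SIN3A window in either library. At MTA2 both libraries had a narrow region about as far from the start, 9500 to 9622 bp downstream in shNT at percentile 16.7 and 9448 to 9614 bp downstream in shRBBP4 at percentile 28.4. The other shNT region there stood at percentile 7.97, and the other shRBBP4 regions at 28.4 downstream and 21.2 upstream.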
